A study of Mus musculus with 12 samples.

Results

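The genes described here are 10 genes of bile acid synthesis in the newborn mouse liver, 9 enzymes and the repressor Nr0b2, picked by symbol from the classic and alternative pathways. All 10 were found, each with 1 probe set, among 23185 genes measured (25206 probe sets in all). In RefSeq (GRCm38.p6) Cyp7a1, Baat and Nr0b2 lie on chromosome 4, Hsd3b7 and Slc27a5 on chromosome 7, Cyp27a1 on chromosome 1, Cyp7b1 on 3, Akr1d1 on 6, Cyp8b1 on 9 and Amacr on 15. The livers of 12 mice killed at 5 days of age were each hybridised to an Affymetrix whole-transcript array, 3 per group. In the LKB1 experiment, Cre-positive livers lacking the kinase gene Lkb1 (official symbol Stk11; LKB1 KO) were set against Cre-negative normal livers (LKB1 WT), and in the RbpJk experiment, Cre-positive livers lacking RbpJk (official symbol Rbpj; RbpJk KO) against Cre-negative normal livers of their own (RbpJk WT). RbpJk is the DNA-binding partner of the Notch receptors. The labels give all 12 mice as male and both deletions as confined to the liver, while the Cre driver, strain and litter were not given in the sources used here. Comparisons asked how each gene's level in a knockout differed from its own controls, whether the differences of the experiments were unequal, and how the 4 groups were ordered.

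Hepatocytes make bile acids from cholesterol. In the classic pathway the sterol ring is hydroxylated before the side chain is shortened, in the alternative pathway the side chain is oxidised before the ring, and the products are joined to taurine or glycine and secreted into bile. Bile acids returning to the liver bind the nuclear receptor Fxr (Nr1h4), which induces Nr0b2, a repressor of Cyp7a1 and Cyp8b1, and so limit their own synthesis.

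All levels below are log2 expression, on which 1 unit is a doubling, and are compared between groups for 1 gene at a time. A change is the KO mean minus the WT mean with its SE from limma, a linear model of every gene. In it the spread of each gene is pooled over all arrays and drawn toward that of genes of similar level. A gene was called changed at a Benjamini-Hochberg adjusted p under 0.05 over all 23185 genes. Means are given ± SD (n = 3 arrays). Confidence intervals (CI) are 95% intervals for single genes. The labels do not say whether the mice share litters. The p-values set a difference of means against the spread between these samples, and could be too small if mice of a group share litters. The methods' t-test, tried as an alternative, is an unpaired two-tailed test of each gene alone, which the study's methods name in their general statistics but do not state for these arrays. An exact two-sided permutation test of 3 arrays against 3 cannot go below p = 0.1.

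Several facts of the arrays touch the results. Stk11 was at 7.03, 6.85 and 6.38 in LKB1 KO livers, against 7.58, 7.53 and 7.53 in LKB1 WT livers (change -0.80 ± 0.15, adjusted p = 0.0224), a call lost by the methods' t-test (0.372) and without LKB1 KO 2, LKB1 KO 3 or any LKB1 WT array (0.0583 to 0.088). Rbpj was dim, at 4.61, 4.48 and 3.92 in RbpJk KO livers, against 4.84, 5.05 and 5.31 in RbpJk WT livers, and missed the threshold (-0.73, adjusted p = 0.0724). The place of the probes relative to the deleted parts was not examined. Xist, expressed from the inactive X chromosome of females, was high on 6 arrays (10.63 to 10.75) and low on 6 (3.81 to 5.09), against the labels. The Y-linked gene Eif2s3y was at 2.30 to 2.94 on the Xist-high arrays and at 7.23 to 7.95 on the Xist-low arrays. By both genes the high class read as female and the low class as male. The high class held 1 of 3 LKB1 KO (KO 3), 3 of 3 LKB1 WT, 0 of 3 RbpJk KO and 2 of 3 RbpJk WT arrays (WT 1 and WT 3). RbpJk WT 1 also had the pancreatic enzyme gene Ctrb1 at 10.44, against 6.75 at most elsewhere. Its summed level of 8 pancreatic acinar markers was 11.13, against 8.11 at most elsewhere. Its sum of 6 cholangiocyte markers was 8.93, against 7.53 at most elsewhere. The summed level of 8 hepatocyte markers was high everywhere, from 15.07 to 15.10 in LKB1 KO, 15.14 to 15.18 in LKB1 WT, 15.13 to 15.20 in RbpJk KO and 15.10 to 15.16 in RbpJk WT livers. In such bulk samples fewer cells of a type and less RNA per cell cannot be told apart.

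**Figure D1:**
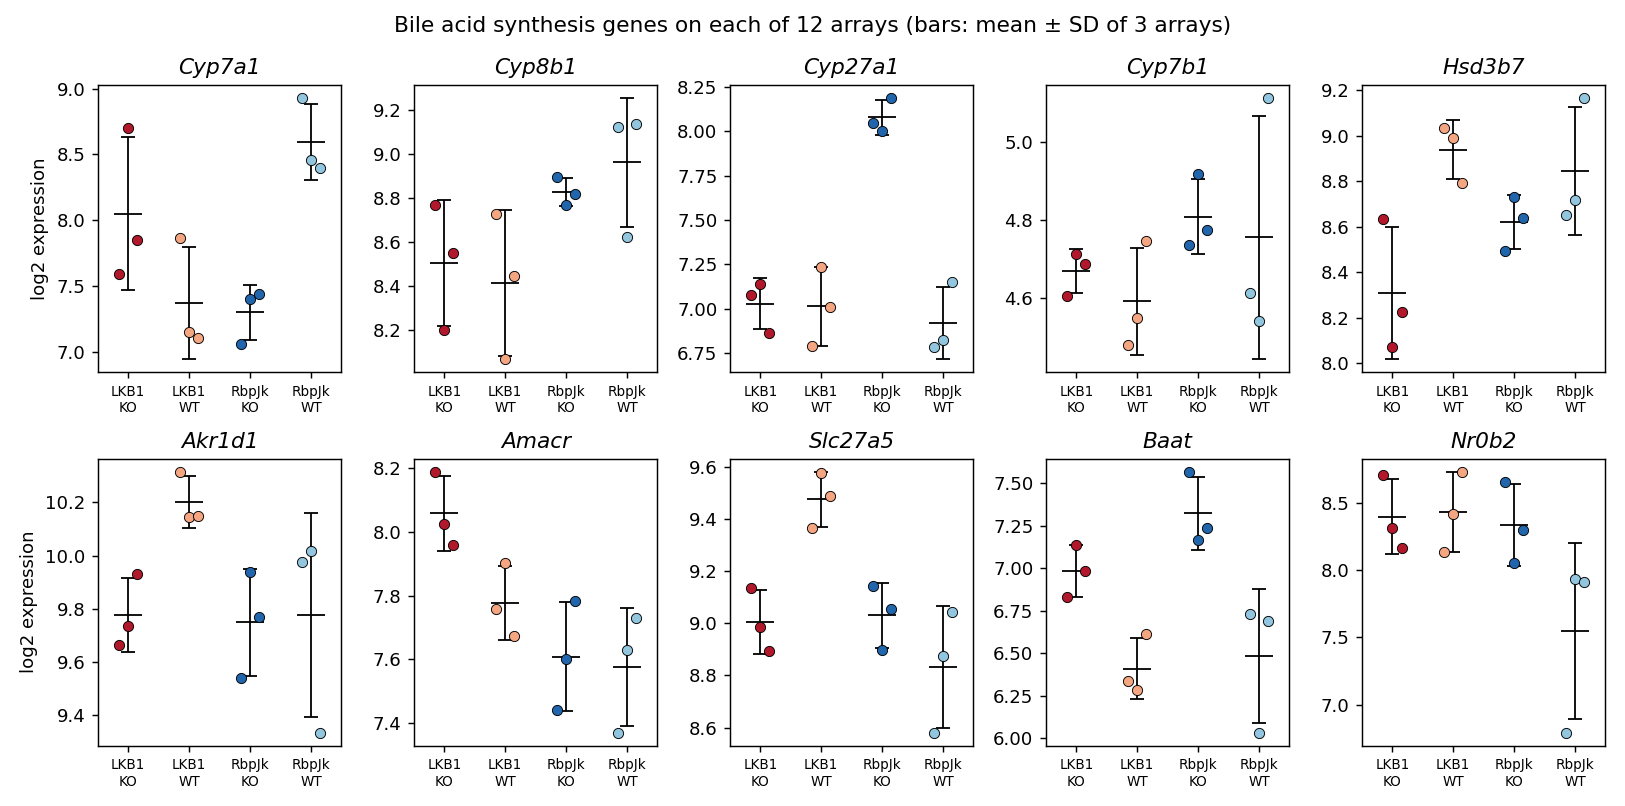
Level of the 10 genes (log2 expression, y axis, a separate scale for each gene) on each array of the 4 groups (x axis), with bars for the mean ± SD of 3 arrays. Cyp27a1 in RbpJk KO livers (mean 8.08) lies apart from all other arrays, at most 7.24, and Cyp7a1 is at 7.44 or less in RbpJk KO livers, against 8.40 or more in RbpJk WT livers.

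In RbpJk KO livers the entry enzymes of the routes moved in opposite directions: Cyp7a1, the rate-limiting enzyme of the classic pathway, fell by 2.45-fold, and Cyp27a1, the mitochondrial sterol hydroxylase that opens the alternative pathway and also oxidises the side chain in the classic one, rose 2.24-fold. Baat, which joins bile acids to taurine or glycine, rose 1.79-fold. These were the 3 of 10 genes called by limma, where 1.68% of all genes were called; 2 were higher, against 1.12% of all genes, and 1 was lower, against 0.565%. All genes called were 259 higher and 131 lower, and after median centring of the arrays 482 higher and 120 lower. The other 7 were not called, Nr0b2 having the greatest change among them. At an unadjusted p under 0.05 limma gave 4 of the 10, against 14.5% of all genes and 18.6% of those above the 40th percentile of mean level.

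Cyp7a1 was at 7.06, 7.40 and 7.44 in RbpJk KO livers, against 8.93, 8.45 and 8.40 in RbpJk WT livers. The groups did not overlap, and the arrays of each lay close together. The means were 7.30 ± 0.21 in RbpJk KO and 8.59 ± 0.29 in RbpJk WT livers, a change of -1.29 ± 0.26 (adjusted p = 0.0216, CI -1.85 to -0.73). The call was lost without RbpJk KO 1 (adjusted p = 0.0779), RbpJk KO 3 (0.0596), RbpJk WT 1 (0.0637) or RbpJk WT 2 (0.0534) and with the methods' t-test (0.311), while the change stayed between -1.39 and -1.13 in all 13 alternative settings. With Xist class as a covariate the change was -1.32 and the adjusted p 0.112. RbpJk WT 2, the control in the Xist class of the knockouts, was at 8.45, above all 3 RbpJk KO arrays, as the lack of overlap already implies.

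Cyp27a1 was at 8.05, 8.002 and 8.19 in RbpJk KO livers, against 6.78, 6.82 and 7.15 in RbpJk WT livers. Every RbpJk KO array exceeded not only its own controls but also all 6 arrays of the LKB1 experiment, of which the highest was at 7.24. The means were 8.08 ± 0.10 in RbpJk KO and 6.92 ± 0.20 in RbpJk WT livers (change 1.16 ± 0.14, adjusted p = 0.000518, CI 0.86 to 1.46). Of the 10 genes it had the smallest p, at rank 36 of 23185 in this comparison. The call held in 12 of 13 alternative settings, with changes from 1.09 to 1.28, and was lost only with the methods' t-test, by which 0 of 23185 genes passed after adjustment and 2071 had an unadjusted p under 0.05.

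Since Rbpj binds DNA, the promoters of the 10 genes were searched for its core motif TGGGAA and for motifs of bile acid regulators: TCAAGGTCA and its inner AAGGTCA (Nr5a2), the AGGTCA contained in both (nuclear receptors), GGTCA and TGACC as an inverted repeat with 1 base between (Nr1h4), and CACGTG (E-box), on both strands. RefSeq windows (GRCm38.p6, 250 bases before to 50 after the start) were at hand for 5 of the 10 genes, Cyp8b1, Cyp27a1, Hsd3b7, Akr1d1 and Nr0b2. The window of Cyp27a1, shown because its change was the most firmly measured, held 0 of these motifs. The 250 bases before its start, at chr1:74713285-74713534 on the plus strand, read:
Cyp27a1: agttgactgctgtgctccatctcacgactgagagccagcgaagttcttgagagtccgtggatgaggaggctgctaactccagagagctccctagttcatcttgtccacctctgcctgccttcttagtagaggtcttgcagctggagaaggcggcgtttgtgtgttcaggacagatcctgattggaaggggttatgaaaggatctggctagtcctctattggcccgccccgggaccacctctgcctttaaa
The window of Nr0b2, shown as that of the repressor, held an E-box from -195 to -190, in capitals in its 250 bases before the start (chr4:133553126-133553375, plus strand), and the 1 Rbpj core found in the 5 genes, from 21 to 26 after the start, in capitals in the short stretch around it (chr4:133553388-133553409, plus strand):
Nr0b2 before the start: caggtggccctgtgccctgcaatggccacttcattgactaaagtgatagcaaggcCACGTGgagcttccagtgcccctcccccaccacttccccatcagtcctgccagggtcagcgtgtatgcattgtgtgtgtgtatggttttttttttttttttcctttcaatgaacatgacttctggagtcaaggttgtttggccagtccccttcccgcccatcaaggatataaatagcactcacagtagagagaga
Nr0b2 after the start: cagatagcTGGGAAgaaacagg
Akr1d1 held 2 AGGTCA matches on the opposite strand, from -232 to -227 and from -210 to -205, and the windows of Cyp8b1 and Hsd3b7 held 0 matches. Of 32851 promoter windows of 27025 genes, 25.6% held TGGGAA, 7.15% CACGTG, 16.3% AGGTCA, 4.72% AAGGTCA, 0.423% TCAAGGTCA and 0.0396% the inverted repeat, so that a core such as TGGGAA is common. A match describes letters and not a bound site.

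Baat was at 7.57, 7.17 and 7.23 in RbpJk KO livers, against 6.73, 6.03 and 6.69 in RbpJk WT livers. All RbpJk KO arrays lay above the controls, of which RbpJk WT 2 stood low. The means were 7.32 ± 0.22 in RbpJk KO and 6.49 ± 0.39 in RbpJk WT livers (change 0.84 ± 0.18, adjusted p = 0.0311). The call was lost without RbpJk KO 1 (adjusted p = 0.11), RbpJk KO 3 (0.0784) or RbpJk WT 2 (change 0.61, adjusted p = 0.0856), in the 6 arrays of the experiment alone (0.142), without an intensity trend in the spread (0.0515) and with the methods' t-test (0.508). With Xist class as a covariate the change was 1.07 (adjusted p = 0.0281).

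Nr0b2 was at 8.66, 8.06 and 8.30 in RbpJk KO livers, against 6.79, 7.94 and 7.91 in RbpJk WT livers. The groups did not overlap, but RbpJk WT 1 lay far below the other controls, which came close to the lowest knockout. The change of 0.79 ± 0.27 was not called (adjusted p = 0.179, CI 0.22 to 1.37), and without RbpJk WT 1 it was 0.41 (adjusted p = 0.308). RbpJk WT 1 is the array with high Ctrb1, whose part in this value was not tested.

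The other 6 genes had changes between -0.22 and 0.20 in RbpJk KO livers, with overlapping groups. Cyp8b1, the sterol hydroxylase that directs synthesis to cholic acid, was at 8.83 ± 0.06 in RbpJk KO and 8.96 ± 0.29 in RbpJk WT livers (-0.14 ± 0.18, adjusted p = 0.781, CI -0.52 to 0.25). Cyp7b1, which hydroxylates oxysterols in the alternative pathway, was at 4.81 ± 0.10 and 4.76 ± 0.31 in RbpJk KO and RbpJk WT livers (0.05 ± 0.16, adjusted p = 0.917). Its values on all 12 arrays, 4.48 to 5.11, were near the array medians of 4.84 to 5.01, and the file gives no detection call, so that its expression was not shown to exceed background.

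The ring-modifying enzymes did not pass either. Hsd3b7, which oxidises the ring after its hydroxylation, was at 8.62 ± 0.12 in RbpJk KO and 8.84 ± 0.28 in RbpJk WT livers (-0.22 ± 0.16, adjusted p = 0.545), and Akr1d1, the reductase that bends the ring system, at 9.75 ± 0.20 and 9.78 ± 0.38 (-0.03 ± 0.16, adjusted p = 0.960, CI -0.37 to 0.31). Amacr, the racemase that prepares the side chain for shortening, gave 7.61 ± 0.17 in RbpJk KO and 7.58 ± 0.19 in RbpJk WT livers (0.03 ± 0.12, adjusted p = 0.938, CI -0.23 to 0.30). Slc27a5, the ligase that activates bile acids with coenzyme A before Baat acts, gave 9.03 ± 0.12 in RbpJk KO and 8.83 ± 0.23 in RbpJk WT livers (0.20 ± 0.12, adjusted p = 0.475).

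In 4 of the 10 genes (Cyp7a1, Cyp27a1, Baat and Nr0b2) the RbpJk KO arrays did not overlap the RbpJk WT arrays, against 16.2% of all genes and 20.5% of the 13911 genes above the 40th percentile of mean level, where all 10 lie. The median change of the 10 was 0.04, against -0.03 over all genes.

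**Figure D2:**
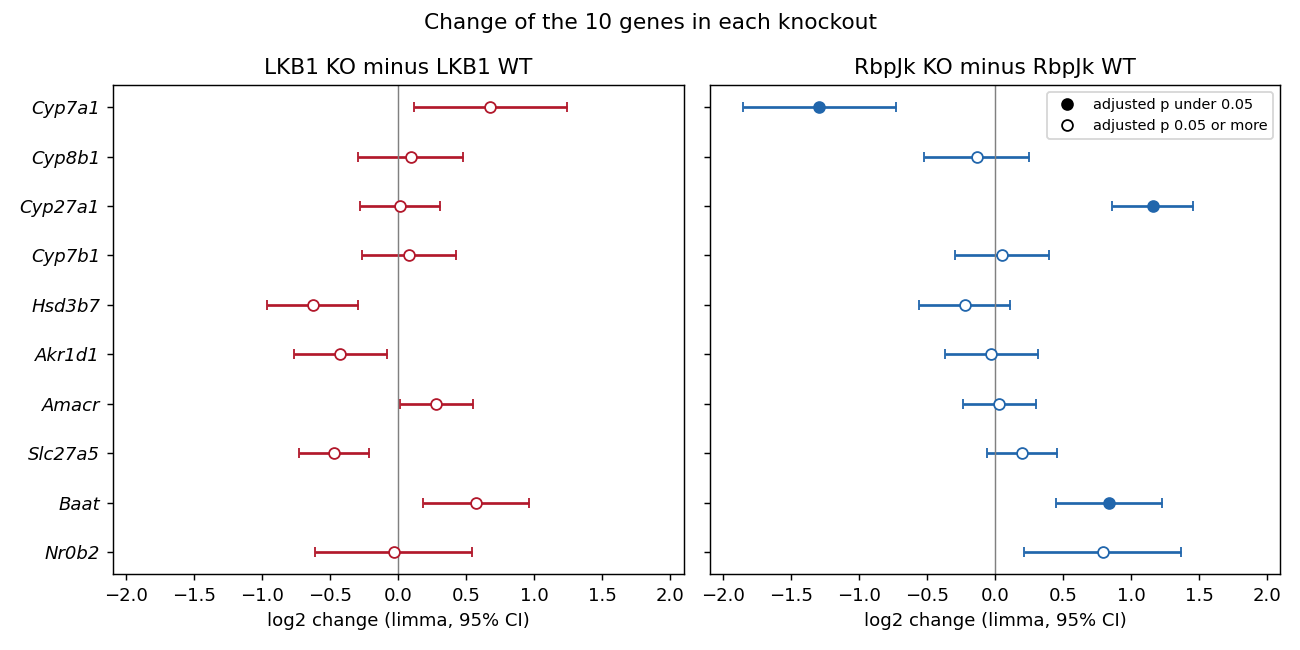
Change of each of the 10 genes (log2, x axis) in LKB1 KO against LKB1 WT livers (left) and in RbpJk KO against RbpJk WT livers (right), with 95% CI from limma, filled where the adjusted p was under 0.05. No point is filled on the left, and Cyp7a1 (-1.29), Cyp27a1 (1.16) and Baat (0.84) are filled on the right.

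In LKB1 KO livers 0 of the 10 genes were called by limma, where 0.962% of all genes were called (0.418% higher and 0.543% lower). All genes called were 97 higher and 126 lower, and after median centring 123 higher and 112 lower. The greatest changes were those of Cyp7a1 (0.68), Hsd3b7 (-0.63), Baat (0.57), Slc27a5 (-0.47) and Akr1d1 (-0.43). At an unadjusted p under 0.05 limma gave 6 of the 10, against 8.05% of all genes and 11.5% of those above the 40th percentile, and the methods' t-test gave 5 before and 0 after adjustment. In 5 of the 10 genes the arrays did not overlap, Hsd3b7, Akr1d1 and Slc27a5 being lower and Amacr and Baat higher in LKB1 KO livers, against 16.4% of all genes and 20.5% of those above the 40th percentile. The median change was 0.05, against -0.01 over all genes.

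Among the hydroxylases, Cyp7a1 was at 7.59, 8.70 and 7.85 in LKB1 KO livers, against 7.86, 7.15 and 7.11 in LKB1 WT livers. The groups overlapped, LKB1 KO 2 standing high and LKB1 WT 1 level with LKB1 KO 3. The means were 8.05 ± 0.58 in LKB1 KO and 7.37 ± 0.43 in LKB1 WT livers (change 0.68 ± 0.26, adjusted p = 0.444), and without LKB1 KO 2 the change was 0.35. Cyp8b1 was at 8.51 ± 0.29 in LKB1 KO and 8.41 ± 0.33 in LKB1 WT livers (0.09 ± 0.18, CI -0.29 to 0.48), and Cyp7b1 at 4.67 ± 0.06 and 4.59 ± 0.14 (0.08 ± 0.16). For Cyp27a1 the values were 7.08, 7.14 and 6.86 in LKB1 KO livers, against 6.79, 7.24 and 7.01 in LKB1 WT livers, which interleave, and the change was 0.01 ± 0.14 (CI -0.28 to 0.31).

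Hsd3b7 was at 8.63, 8.07 and 8.22 in LKB1 KO livers, against 9.04, 8.99 and 8.79 in LKB1 WT livers. All 3 knockouts lay below the controls, LKB1 KO 1 being the nearest to them. The means were 8.31 ± 0.29 in LKB1 KO and 8.94 ± 0.13 in LKB1 WT livers, a 1.55-fold difference (-0.63 ± 0.16, adjusted p = 0.0909, CI -0.96 to -0.30). The difference was called without LKB1 KO 1 (-0.79, adjusted p = 0.0256) and after quantile normalization (0.0479). Akr1d1, the next enzyme on the ring, was at 9.66, 9.74 and 9.93 in LKB1 KO livers, against 10.31, 10.14 and 10.15 in LKB1 WT livers. It was not called (-0.43 ± 0.16, adjusted p = 0.399), though its LKB1 KO arrays lay below the controls as well.

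The enzymes of the side chain and of conjugation gave changes of either sign. Amacr was at 8.19, 8.03 and 7.96 in LKB1 KO livers, against 7.76, 7.90 and 7.67 in LKB1 WT livers (0.28 ± 0.12, adjusted p = 0.569), the groups being separated by a narrow gap. Slc27a5 was at 9.14, 8.99 and 8.89 in LKB1 KO livers, against 9.37, 9.58 and 9.49 in LKB1 WT livers (-0.47 ± 0.12, adjusted p = 0.109, CI -0.73 to -0.21). The spread within each group was small, and the difference was called in the 6 arrays of the experiment alone (adjusted p = 0.0407). Baat was at 6.83, 7.14 and 6.99 in LKB1 KO livers, against 6.33, 6.28 and 6.61 in LKB1 WT livers (0.57 ± 0.18, adjusted p = 0.245, CI 0.19 to 0.96). Thus the ligase was lower and the transferase of the same conjugation route higher on all LKB1 KO arrays than on all LKB1 WT arrays, with neither called.

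Nr0b2 was at 8.71, 8.32 and 8.17 in LKB1 KO livers, against 8.14, 8.42 and 8.73 in LKB1 WT livers. The values spanned the same range in both groups (-0.03 ± 0.27, CI -0.61 to 0.54).

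Markers of Kupffer cells and of endothelial cells were lower in LKB1 KO livers. The summed level of 8 Kupffer cell markers was between 10.90 and 10.97 in LKB1 KO, against 11.22 and 11.33 in LKB1 WT livers, and that of 8 endothelial markers between 10.92 and 11.06 in LKB1 KO, against 11.23 and 11.35 in LKB1 WT livers. All 16 markers had a negative change, as had 12201 of all 23185 genes, and 0 were called by limma. Of the 16, 12 had an unadjusted p under 0.05 by limma, against 8.05% of all genes. The hepatocyte sum was lower as well, as given above. Sums of the other lists overlapped. Erythroid sums were between 10.97 and 11.70 in LKB1 KO, against 11.41 and 11.71 in LKB1 WT livers. Cholangiocyte sums were 7.34 to 7.52 in LKB1 KO and 7.07 to 7.45 in LKB1 WT livers. Pancreatic acinar sums were 7.58 to 8.02 in LKB1 KO and 7.60 to 7.66 in LKB1 WT livers. In LKB1 KO 3, the knockout in the Xist class of the controls, Hsd3b7, Akr1d1 and Slc27a5 were below all 3 LKB1 WT arrays and Amacr and Baat above them. These genes were named because their groups did not overlap, so this position was fixed and is no separate test of Xist class. The part of the other cell types in the values of the 10 genes was not tested.

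In the RbpJk experiment the Kupffer cell sum was between 11.38 and 11.53 in RbpJk KO, against 11.13 and 11.39 in RbpJk WT livers, which overlap. Of its 8 markers Cd5l and Cd68 were called higher and Adgre1 lower. The sum of 5 erythroid markers was between 10.06 and 10.90 in RbpJk KO, against 10.41 and 11.05 in RbpJk WT livers, which overlap too. Of these markers only Klf1 was called, as lower. Of all genes 1.12% were called higher and 0.565% lower. Sums of 6 cholangiocyte markers (7.07 to 7.53 in RbpJk KO, 7.07 to 8.93 in RbpJk WT livers) and of 8 pancreatic acinar markers (7.52 to 8.11 in RbpJk KO, 7.71 to 11.13 in RbpJk WT livers) overlapped, and 0 of these 14 markers were called by limma, 5 having an unadjusted p under 0.05, against 14.5% of all genes. The highest RbpJk WT sum of each list was that of RbpJk WT 1. RbpJk WT 2 and RbpJk WT 3 had cholangiocyte sums of 7.35 and 7.07 and acinar sums of 7.82 and 7.71. Endothelial sums were between 11.22 and 11.31 in RbpJk KO, against 11.08 and 11.23 in RbpJk WT livers. Without RbpJk WT 1 the changes of Cyp7a1, Cyp27a1 and Baat were -1.13, 1.09 and 0.96. The part of these cell types was not tested.

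The changes of the experiments were then set against each other. They share no array, so that each has its own controls. The change of Cyp27a1 differed between them by -1.15 ± 0.20 (LKB1 change minus RbpJk change, adjusted p = 0.0298), 0.01 in LKB1 KO against 1.16 in RbpJk KO livers. It was the 1 of 10 genes called for this difference, where 0.181% of all genes were called, and the call held in 8 of 17 alternative settings, with adjusted p from 0.0161 to 0.103. It was lost without an intensity trend (0.0563) and without LKB1 KO 1 (0.0554), LKB1 KO 3 (0.0995), LKB1 WT 2 (0.0855), LKB1 WT 3 (0.0861), RbpJk KO 1 (0.0688), RbpJk KO 3 (0.103), RbpJk WT 1 (0.0709) or RbpJk WT 2 (0.0766). Cyp7a1 had the largest estimate, 1.97 ± 0.37, with changes of 0.68 in LKB1 KO and -1.29 in RbpJk KO livers, and missed the threshold (adjusted p = 0.0536). It passed in 3 of 17 settings, with the filter on dim genes (adjusted p = 0.0377) and without LKB1 KO 1 (0.0345) or LKB1 WT 1 (0.0293).

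For Slc27a5 the difference was -0.67 ± 0.17 (adjusted p = 0.171) and for Nr0b2 -0.82 ± 0.38 (adjusted p = 0.544). Baat was higher in both knockouts, by 0.57 in LKB1 KO and 0.84 in RbpJk KO livers, and these changes were not shown to differ (-0.26 ± 0.26, adjusted p = 0.831). On all 6 KO arrays it was at 6.83 or more, against 6.73 or less on all 6 WT arrays, a separation noticed after the values were seen and given here with no test. The share of all genes separated in this way was not counted.

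The order of the groups differed between Cyp27a1 and Cyp7a1, with a group apart from the others only for Cyp27a1. For Cyp27a1 the order of means was RbpJk KO (8.08), LKB1 KO (7.03), LKB1 WT (7.01) and RbpJk WT (6.92), with RbpJk KO apart and the other 3 groups overlapping. For Cyp7a1 it was RbpJk WT (8.59), LKB1 KO (8.05), LKB1 WT (7.37) and RbpJk KO (7.30), each group overlapping the next, so that RbpJk KO livers lay at the level of LKB1 WT livers and RbpJk WT livers at the top. For Nr0b2 the order was LKB1 WT (8.43), LKB1 KO (8.40) and RbpJk KO (8.34), which overlapped, and RbpJk WT (7.55) below all of them. Between the control groups the difference (LKB1 WT minus RbpJk WT) was -1.22 ± 0.26 for Cyp7a1 (adjusted p = 0.0511, called in 3 of 12 settings) and 0.89 ± 0.27 for Nr0b2 (adjusted p = 0.184).

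**Figure D3:**
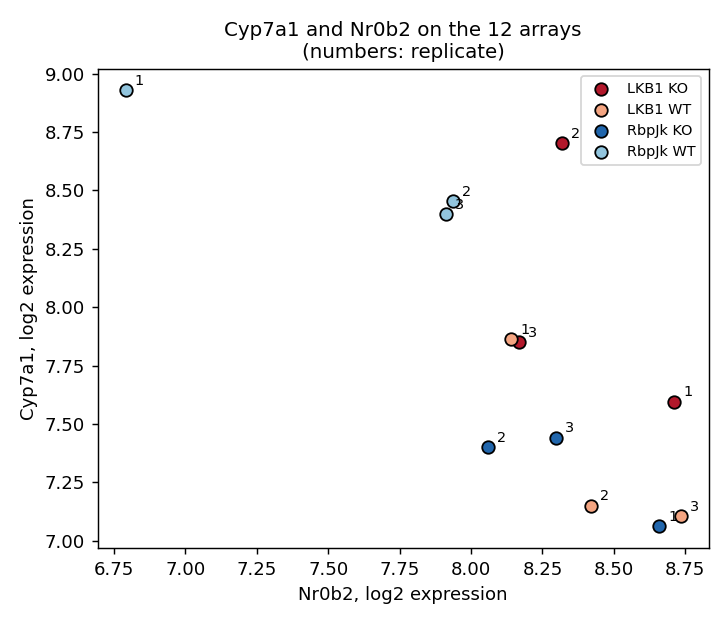
Level of Cyp7a1 (log2 expression, y axis) against that of its repressor Nr0b2 (log2 expression, x axis) on the 12 arrays, coloured by group and numbered by replicate. The 3 RbpJk WT arrays have the lowest Nr0b2 levels, 6.79 to 7.94, with Cyp7a1 at 8.40 to 8.93, and LKB1 KO 2 combines Cyp7a1 at 8.70 with Nr0b2 at 8.32.

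Among the other genes, Slc27a5 was highest in LKB1 WT livers (9.48 ± 0.11), apart from RbpJk KO (9.03), LKB1 KO (9.01) and RbpJk WT (8.83) livers, which overlapped in that order. It was the 1 of 10 genes called between the control groups (0.64 ± 0.12, adjusted p = 0.0224), where 0.699% of all genes were called, and the call was lost in 6 of 12 settings, among them those without LKB1 WT 2 (adjusted p = 0.125), LKB1 WT 3 (0.104), RbpJk WT 1 (0.0508) or RbpJk WT 2 (0.0536). Akr1d1 too was highest in LKB1 WT livers (10.20 ± 0.10), apart from the 3 other groups (LKB1 KO 9.78, RbpJk WT 9.78 and RbpJk KO 9.75). Amacr was highest in LKB1 KO livers (8.06 ± 0.12), and Baat ran in the order RbpJk KO (7.32), LKB1 KO (6.98), RbpJk WT (6.49) and LKB1 WT (6.41), with an overlap only between the last 2 groups. Cyp8b1, Cyp7b1 and Hsd3b7 had each group overlapping the next. Whether the control groups differ by experiment, strain or handling cannot be told apart. Their erythroid sums did not overlap, at 11.41 to 11.71 in LKB1 WT and 10.41 to 11.05 in RbpJk WT livers, while hepatocyte and Kupffer cell sums did. The part of cell content or Xist class in the differences between the control groups was not tested.

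The rest of the pathway was followed in lists of other synthesis enzymes (14 of 16 measured), regulators (24 of 26) and transporters (all 14). In RbpJk KO livers 1 of the 14 enzymes was called higher and 0 lower (median change 0.06), where 1.12% of all genes were called higher and 0.565% lower (median change -0.03). The enzyme called was Cyp2c70, which makes the muricholic acids of mice, at 10.29, 9.97 and 10.14 in RbpJk KO livers, against 9.48, 9.68 and 9.75 in RbpJk WT livers (0.50 ± 0.10, adjusted p = 0.0179), a call lost in 7 of 13 settings (adjusted p from 0.0542 to 0.455), those without RbpJk KO 1 (0.0665), RbpJk KO 3 (0.0685) or RbpJk WT 1 (0.0542) among them. Of the 24 regulators 2 were higher and 0 lower (median -0.02), set against the same shares of all genes. Nr1d1, the circadian repressor Rev-erb alpha, was at 8.09, 8.41 and 8.45 in RbpJk KO livers, against 6.79, 7.30 and 6.98 in RbpJk WT livers (1.29 ± 0.18, adjusted p = 0.00153). Hnf4a, a nuclear receptor that maintains hepatocyte genes including those of bile acid synthesis, was at 9.50, 9.59 and 9.62 in RbpJk KO livers, against 9.09, 8.80 and 8.91 in RbpJk WT livers (0.64 ± 0.10, adjusted p = 0.00475). Both groups of arrays were apart for each, and both calls held in 12 of 13 settings, all but the methods' t-test. The hour at which the mice were killed was not found in the labels or the study's methods.

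Of the 14 transporters 3 were higher and 1 lower in RbpJk KO livers (median -0.17), where 1.12% of all genes were higher and 0.565% lower. The canalicular bile salt export pump gene Abcb11 was at 10.30, 10.36 and 10.28 in RbpJk KO livers, against 9.25, 9.45 and 9.64 in RbpJk WT livers (0.87 ± 0.13, adjusted p = 0.00300), and its call was lost only with the methods' t-test (0.274). Abcb4, which moves phosphatidylcholine into bile, rose by 0.67 ± 0.13 (adjusted p = 0.0157). The call was lost in 5 of 13 settings, without RbpJk KO 2 (0.0607), RbpJk KO 3 (0.0680) or RbpJk WT 2 (0.0617), with Xist class as a covariate (0.0934) and with the methods' t-test (0.314). Slc51b, a subunit of the basolateral bile acid exporter, was at 6.72, 6.58 and 6.40 in RbpJk KO livers, against 4.73, 4.67 and 5.81 in RbpJk WT livers (1.49 ± 0.31, adjusted p = 0.0237). This call was lost in 7 of 13 settings, without RbpJk WT 1, RbpJk WT 2 or any 1 RbpJk KO array (0.0651 to 0.099), in the 6 arrays alone (0.0521) and with the methods' t-test (0.464). Slc51a, the other subunit, was dim and lower, at 3.56 to 3.84 in RbpJk KO against 4.09 to 4.40 in RbpJk WT livers. Its change was not called (-0.63 ± 0.15, adjusted p = 0.0598). Abcg5, a subunit of the sterol exporter, fell by 0.65 on the log2 scale (SE 0.15, adjusted p = 0.0388). Its call was lost in 8 of 13 settings, without RbpJk WT 2 or any 1 RbpJk KO array (0.0667 to 0.124), in the 6 arrays alone (0.158), without an intensity trend (0.0714), after median centring (0.0559) and with the methods' t-test (0.494). Abcg8, the other subunit of that exporter, was lower as well on all RbpJk KO arrays than on the controls, with a change not called (-0.55 ± 0.14, adjusted p = 0.0708).

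In LKB1 KO livers 0 of the 14 enzymes were called by limma (median 0.02), where 0.962% of all genes were called (median -0.01). Of these enzymes 1 had an unadjusted p under 0.05, and the smallest p belonged to Cyp2c70 (-0.23 ± 0.10, adjusted p = 0.522) and the acyl-CoA synthetase gene Slc27a2 (-0.15 ± 0.07, adjusted p = 0.624). Of the 24 regulators 0 were higher and 1 lower (median -0.02), against 0.418% and 0.543% of all genes. Nr1i3, the xenobiotic receptor Car, was at 8.28, 8.22 and 7.79 in LKB1 KO livers, against 9.24, 9.56 and 9.25 in LKB1 WT livers, a fall of 2.38-fold (-1.25 ± 0.14, adjusted p = 0.000343). Of the 14 transporters 0 were higher and 1 lower (median -0.11): Slco1b2, which takes bile acids and other organic anions up from blood, was at 9.26, 9.52 and 8.99 in LKB1 KO livers, against 10.29, 10.53 and 10.51 in LKB1 WT livers (-1.19 ± 0.13, adjusted p = 0.000257). Both calls held in 12 of 13 settings, all but the methods' t-test.

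**Figure D4:**
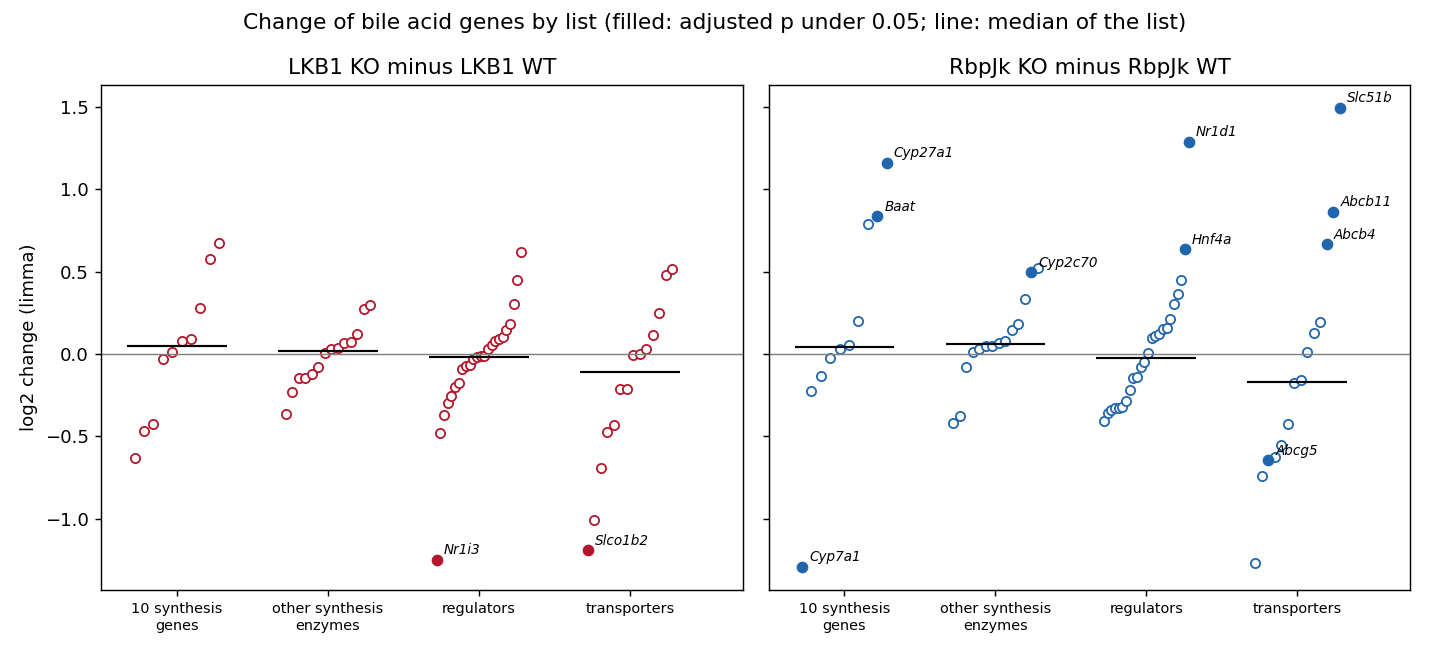
Change (log2, y axis) of the 10 synthesis genes and of the genes of 3 lists (x axis) in LKB1 KO against LKB1 WT livers (left) and RbpJk KO against RbpJk WT livers (right), sorted within each list, with the list's median as a line. Filled points passed an adjusted p of 0.05 and are named: Nr1i3 (-1.25) and Slco1b2 (-1.19) on the left, and on the right Cyp7a1 (-1.29) and Abcg5 (-0.65) below 0 and 8 genes above it.

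The genes whose levels followed those of 4 of the 10 most closely over the 12 arrays were picked by Pearson's r among 23184 genes, as a description with no test, since the points share groups and the highest r of so many is high by selection. Cyp27a1 was followed by Txnip (r = 0.98, Spearman's rho 0.88), Eid3 (0.97, 0.88) and Zfp655 (0.96, 0.87). Cyp8b1 was followed by Ei24 (0.92, 0.92), Col5a3 (0.91, 0.90) and S100a1 (0.88, 0.88), Cyp7a1 by Klk1b5 (0.88, 0.72), Kcnmb4os1 (0.85, 0.86) and Olfr73 (0.84, 0.75), and Nr0b2 by Tnfaip2 (0.88, 0.86), Rcan2 (0.86, 0.78) and Psmb10 (0.86, 0.83).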

How the data were processed

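Liver RNA of 12 mice was extracted with Trizol, labelled with biotin and hybridised to Affymetrix whole-transcript arrays, and the authors deposited 1 log2 expression value for each probe set (range 1.18 to 12.97). The submitters' processing notes name Partek, and the study's methods Mouse Gene 2.0 ST arrays, Expression Console and BRB-ArrayTools without saying whether these arrays are meant. The normalization and any background correction were not given in the sources used here; dim probe sets, such as Rbpj and Cyp7b1, can have compressed differences.

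Of 25206 probe sets, 2021 name no single gene and were left out. The other 23185 were named through the platform annotation and matched RefSeq (GRCm38.p6) by Entrez number. Groups came from the titles, and replicates were numbered in the order of entries, so arrays were not paired. limma 3.58.1 in R 4.3.3 fitted the means of the 4 groups to all 12 arrays (residual degrees of freedom 8, prior 5.88), with an intensity trend and Benjamini-Hochberg adjustment. The code was also run on simulated data with independent noise, which cannot show effects of sex, litter or an odd array. Adjusted p-values come from the limma model of the 12 arrays unless an alternative is named beside them. Each alternative was refitted and adjusted over the genes it tested. Marker sums are log2 of the summed linear values.

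Genes named were the 10 genes, the targeted genes, up to 5 called genes per list and knockout (or the 2 of smallest p), and the 3 genes most correlated with each of 4 of the 10. Slc51a and Abcg8 were added as the partners of Slc51b and Abcg5, and sex-linked and marker genes were named for the checks of the arrays. The 10 genes, the lists and the tests were chosen with earlier results of these data known. The alternatives tried were a fit to 1 experiment alone, no intensity trend, quantile normalization, median centring, a filter on dim genes (the 40th percentile), the methods' t-test (unpaired and two-tailed, from the study's general statistics and not stated for these arrays), Xist class (a log2 level of 8) as a covariate and leaving out each array. The same alternatives for genes outside the 10 were added after the data were seen. A few genes of the pathway lists were not analysed here.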

Additional observations from a re-analysis of the deposited data

Results flagged for a closer look

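The change of Cyp27a1 differed between the experiments. LKB1 KO minus LKB1 WT was 0.01 ± 0.14 and RbpJk KO minus RbpJk WT was 1.16 ± 0.14 on the log2 scale, and the test of the difference itself (an interaction term in limma) gave -1.15 ± 0.20 with an adjusted p of 0.0298. The adjusted p ranged from 0.0161 to 0.103 over 17 alternative settings, and in all of them the difference was negative.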

How the results depend on the processing

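The 10 genes called in LKB1 KO livers (0) numbered 1 in the 6 arrays of the experiment alone, 1 after quantile normalization and 0 to 1 when each array was left out. Of all genes, 223 were called there, against 131 without an intensity trend, 132 with Xist class as a covariate, 0 by the methods' t-test and 106 to 183 with an array left out. In RbpJk KO livers 3 of the 10 were called, against 0 by the methods' t-test and 1 to 3 with an array left out, and of all genes 390, against 157 in the 6 arrays alone, 602 after median centring, 187 with Xist class, 0 by the methods' t-test and 194 to 465 with an array left out. For the difference of the changes 1 of the 10 was called, against 0 without the trend, 2 with the filter on dim genes and 0 to 2 with an array left out. Between the control groups (LKB1 WT minus RbpJk WT) 1 was called, against 0 without the trend, 2 after quantile normalization, 2 with the filter, 0 by the methods' t-test and 0 to 2 with an array left out. Reversals were confined to small changes that were never called. With Xist class the change of Cyp27a1 in LKB1 KO livers was -0.019, and in RbpJk KO livers that of Cyp8b1 was 0.055 and that of Amacr -0.044 (-0.040 after quantile normalization). Median centring turned Akr1d1 in RbpJk KO livers to 0.033, and the difference of Cyp7b1 was -0.014 after quantile normalization and -0.0086 after median centring. With an array left out, changes in LKB1 KO livers ranged from -0.080 to 0.25 for Cyp8b1, -0.097 to 0.13 for Cyp27a1 and -0.19 to 0.12 for Nr0b2, and in RbpJk KO livers from -0.054 to 0.23 for Cyp7b1, -0.25 to 0.094 for Akr1d1 and -0.071 to 0.12 for Amacr. The difference of Cyp7b1 ranged from -0.15 to 0.13, and the contrast of the control groups from -0.017 to 0.21 for Cyp27a1, -0.27 to 0.014 for Cyp7b1, -0.0031 to 0.25 for Hsd3b7 and -0.30 to 0.049 for Baat. The cause of these shifts was not tested; fits with fewer arrays or the covariate have fewer degrees of freedom. No paired analysis was possible because the labels give no litter or pairing of the mice. With 3 arrays per group and no detection calls, their number and the dimness of Cyp7b1 and Rbpj limit the precision.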
